A study of Mus musculus with 23 samples.

Results

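The endothelial leukocyte adhesion genes were followed by symbol in a droplet single-cell data set of mouse brain: Vwf, Selp, Sele, Icam1, Icam2, Vcam1, Pecam1 and Ackr1, 8 of the 32285 genes in the count matrix, and all 8 were found. The cells came from brains collected 24 h after a tail vein dose of 45 mg/kg of an Alexa 647-coupled antibody, and were sorted on that fluorescence into 4 bins (negative, low, medium and high). ATV-TfR (labelled DNP02_hIgG1_LALAPG_ATV35.23.2) was given to TfR mu/hu KI mice, ATV-CD98hc (DNP02 LALAPG LLB2-10-8 monovalent) to CD98hc mu/hu KI mice, and control IgG (DNP02_hIgG1_LALAPG) to C57BL/6 mice, so treatment and genotype cannot be told apart. An antibody transport vehicle, ATV, is an IgG whose Fc part is built to bind a receptor of brain endothelium, here the transferrin receptor or the CD98 heavy chain. The mice were 3.3 months old (12 weeks in the design text), and each of the 6 pools, 2 per treatment, joined cells of 1 male and 1 female mouse. Of the 12 groups, 11 held 2 libraries, and the control IgG negative group held 1, of pool 2. The gates were the tertiles of the ATV-TfR positive cells, applied to all treatments, and the labels put the positive share at about 30% of live cells for ATV-TfR, 20% for ATV-CD98hc and 1% for control IgG. The brains were taken without olfactory bulbs, cerebellum, pons and medulla, and were dissociated in the presence of actinomycin D and anisomycin, which block transcription and translation.

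White blood cells leave the blood by steps that different endothelial proteins serve. P-selectin (Selp), stored with von Willebrand factor (Vwf) in Weibel-Palade bodies, and E-selectin (Sele), made after cytokine signals, let leukocytes roll on the wall. ICAM-1 (Icam1), ICAM-2 (Icam2) and VCAM-1 (Vcam1) hold them through their integrins, PECAM-1 (Pecam1) lies at cell junctions where they pass, and Ackr1, the atypical chemokine receptor also known as DARC, carries chemokines on venules. In brain this traffic is low at rest and takes place mainly in postcapillary venules, where Vcam1 and the selectins are known to be induced by inflammation.

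In the GENCODE M21 annotation of GRCm38, the selectin genes neighbour each other: Sele (ENSMUSG00000026582, chr1:164048234-164057677) and Selp (ENSMUSG00000026580, chr1:164115264-164150026), both on the plus strand. Ackr1 (ENSMUSG00000037872, chr1:173331886-173333750) lies on the minus strand of the same chromosome. Icam1 (ENSMUSG00000037405, chr9:21015985-21028817) and Vwf (ENSMUSG00000001930, chr6:125546774-125686679) are on the plus strand. Vcam1 (ENSMUSG00000027962, chr3:116109949-116129688), Icam2 (ENSMUSG00000001029, chr11:106377656-106388075) and Pecam1 (ENSMUSG00000020717, chr11:106654217-106750628) are on the minus strand.

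Promoter windows of 300 bases (250 before and 50 after the start, RefSeq, GRCm38.p6) were matched for 4 of the 8 genes: Sele, Selp, Icam1 and Ackr1. Those of Sele (chr1:164047984-164048283, plus strand) and Icam1 (chr9:21015690-21015989, plus strand), genes known for their induction by cytokines, are shown because each held a match to the NF-kB-like motif GGANNTTCC, printed in capitals together with TATAAA.
Sele promoter: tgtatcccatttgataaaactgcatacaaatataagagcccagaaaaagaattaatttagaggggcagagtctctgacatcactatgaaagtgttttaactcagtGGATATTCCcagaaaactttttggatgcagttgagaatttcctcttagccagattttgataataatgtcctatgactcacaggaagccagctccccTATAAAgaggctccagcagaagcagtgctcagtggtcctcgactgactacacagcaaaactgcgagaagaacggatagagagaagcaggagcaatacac
Icam1 promoter: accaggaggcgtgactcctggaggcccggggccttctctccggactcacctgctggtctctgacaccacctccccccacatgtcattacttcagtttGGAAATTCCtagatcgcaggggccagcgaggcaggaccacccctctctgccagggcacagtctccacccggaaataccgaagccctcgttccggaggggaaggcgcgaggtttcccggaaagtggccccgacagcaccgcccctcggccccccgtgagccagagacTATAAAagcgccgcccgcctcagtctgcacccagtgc
The motifs were searched on both strands. The Sele match began 145 bases before the start used for its window, with TATAAA at 49 bases before it. The Icam1 match began 153 bases before the start used for its window, with TATAAA 13 bases after it. The GENCODE start of Icam1 (chr9:21015985) lies within the window and downstream of that TATAAA, so distances from the GENCODE start differ. GGANNTTCC occurred in 4.26% and TATAAA in 13.6% of the 32851 promoter windows, and the windows of Selp and Ackr1 held neither. A match describes letters and not a bound site.

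After filters on genes, UMIs and mitochondrial reads and removal of called doublets, 234024 of 265025 cells remained. Library totals ran from 1861238 to 90307818 UMIs, and between 519 and 19341 cells were kept per library. Cell classes were named from markers after clustering without the 8 genes, and 97714 cells were endothelial-like. Levels are given as UMIs of the gene per 1000000 UMIs of the cells summed (CPM), per pool or per library, and SD is over pools or libraries. Means and ranges of classes and sub-clusters take the pools of all treatments together, so their spread includes differences between treatments. In all, 13460 kept cells carried a barcode sequence that also occurred in another library, at most 0.963% of the smaller library of a pair.

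Of the 8 genes, Pecam1, Icam2 and Vwf were mainly endothelial, and Selp, Sele and Ackr1 were near the limit of detection. Endothelial-like cells held 93.5% of the 317866 Pecam1 UMIs, 94% of the 103045 Icam2 UMIs and 93.2% of the 54070 Vwf UMIs. They held 65.0% of the 17391 Icam1 UMIs and 11.3% of the 92537 Vcam1 UMIs, while astrocyte-like cells held 64.8% of the Vcam1 UMIs. Selp had 79 UMIs in all kept cells (49 in endothelial-like cells), Sele 30 (25) and Ackr1 565 (222, and 199 in astrocyte-like cells).

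Vwf, the platelet- and factor VIII-binding glycoprotein, stood at 207 ± 154 CPM (SD, n = 6 pools; range 109 to 500) in endothelial-like cells. The next class was pericyte-like at 69.6 ± 39.6 CPM, and the ranges of these classes overlapped. Icam2, an integrin ligand present on endothelium at rest, stood at 248 ± 43.3 CPM in endothelial-like and 111 ± 35.8 in pericyte-like cells, with no overlap between the pools (lowest endothelial-like pool 192, highest pericyte-like pool 167). Pecam1 stood at 790 ± 63.4 CPM in endothelial-like and 362 ± 86.1 in pericyte-like cells, again without overlap. The pericyte-like cells also held endothelial marker RNA, with 12 endothelial markers summing to between 804 and 17930 CPM in the negative and high bins of the ATV libraries, and the part of this in their Vwf, Icam2 and Pecam1 was not tested.

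Icam1 was highest outside endothelium. Microglia-like cells had 114 ± 35.3 CPM (SD, n = 6 pools; range 87.5 to 184), above every pool of the border macrophage-like cells (48.2 ± 17.5, highest 78.9). Border macrophage-like, fibroblast-like (41.8 ± 5.67) and endothelial-like cells (36.4 ± 15.4) overlapped in that order, as did endothelial-like and pericyte-like cells (15.6 ± 17.2). Vcam1 was highest in fibroblast-like cells at 601 ± 204 CPM (range 385 to 863), above choroid plexus epithelial-like cells at 172 ± 19.5. Choroid plexus epithelial-like cells and astrocyte-like cells (152 ± 7.49, n = 5 pools with enough cells) overlapped. Every astrocyte-like pool was above every border macrophage-like pool (59.6 ± 19.3). Endothelial-like cells came after these at 49.0 ± 43.9 CPM (19.1 to 133), overlapping with border macrophage-like and with ependymal-like cells.

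**Figure D1:**
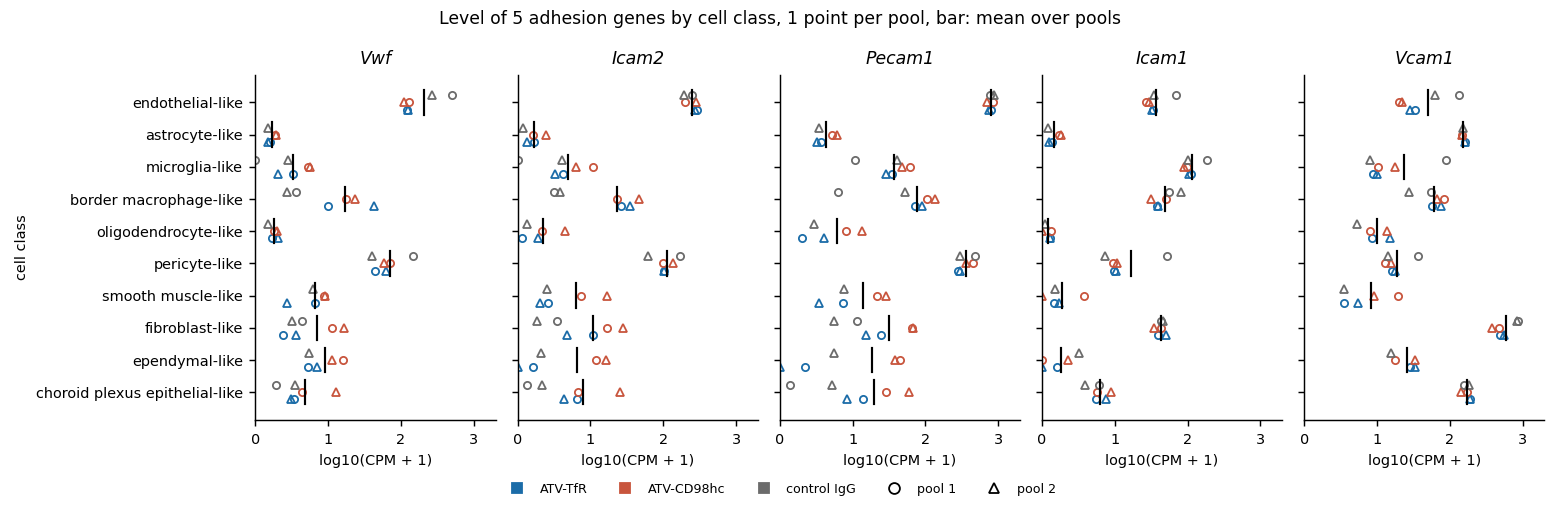
Levels of Vwf, Icam2, Pecam1, Icam1 and Vcam1 as log10(CPM + 1) on the horizontal axes, in cell classes on the vertical axis, with 1 point per pool and a bar at the mean. Vwf, Icam2 and Pecam1 are highest in endothelial-like cells, Icam1 in microglia-like cells (87.5 to 184 CPM) and Vcam1 in fibroblast-like cells (385 to 863 CPM).

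A UMI of Vwf was found in 26.6% of 97714 endothelial-like cells (median 3347 UMIs per cell) and in 0.253% of 92029 astrocyte-like cells (median 3952 UMIs), a class not known to make it. With each cell thinned to 1000 UMIs, leaving out 775 endothelial-like and 696 astrocyte-like cells that were shallower, these shares were 9.98% and 0.0646%. The corresponding shares for Icam1 were 7.06% and 0.184% unthinned and 2.36% and 0.0460% thinned.

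Within the endothelial-like cells, sub-clusters named from markers gave 8069 arterial-like, 53750 capillary-like, 5707 venous-like and 310 fenestrated-like cells, and 5 sub-clusters stayed unnamed. The largest unnamed sub-cluster held 14467 cells and was led by the pericyte genes Rgs5 and Vtn. The next held 12665 cells, with the haemoglobin genes Hbb-bs and Hba-a1 among its leading genes. Cells of unnamed sub-clusters stayed in the endothelial-like sums. Vwf, Vcam1, Icam1 and Ackr1 had their highest mean in the venous-like cells, and Icam2 and Pecam1 did not. These levels describe sub-clusters drawn from the same cells and carry no test. Vwf stood at 569 ± 161 CPM in venous-like (SD, n = 6 pools; lowest 429), 204 ± 59.9 in arterial-like (highest 323), 146 ± 75.8 in capillary-like and 28.6 ± 34.4 in fenestrated-like cells (n = 5). Vcam1 followed the same order, with 194 ± 42.2 CPM in venous-like (lowest 142), 83.5 ± 27.8 in arterial-like (highest 110), 18.1 ± 12.0 in capillary-like and 2.93 ± 4.50 in fenestrated-like cells. For both genes no venous-like pool overlapped an arterial-like one, while arterial-like and capillary-like pools overlapped.

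Icam1 had 70.0 ± 8.99 CPM in venous-like (lowest 59.4), 31.2 ± 10.1 in capillary-like (highest 50.7), 24.0 ± 10.3 in fenestrated-like and 15 ± 4.78 in arterial-like cells (highest 22.1). Its lowest level was thus in the arterial-like cells, where Vcam1 and Vwf had their second highest. Ackr1 stood at 8.28 ± 6.07 CPM in venous-like and 3.89 ± 3.86 in fenestrated-like cells, against 0.0343 ± 0.0551 in arterial-like and 0.0617 ± 0.0331 in capillary-like cells. Icam2 varied less, from 230 ± 36.9 CPM in capillary-like to 309 ± 66.0 in arterial-like cells, and those 2 ranges overlapped. Pecam1 was highest in fenestrated-like cells at 1317 ± 195 CPM and lowest in venous-like cells at 691 ± 45.0 (highest 748).

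Venous-like cells made up 5.84% of the endothelial-like cells but held 86.9% of their Ackr1 UMIs (193 of 222), 43.1% of their Vcam1 UMIs, 25.9% of their Vwf UMIs and 14.7% of their Icam1 UMIs. Arterial-like cells made up 8.26% and held 24.4% of the Vcam1 and 12.2% of the Vwf UMIs.

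**Figure D2:**
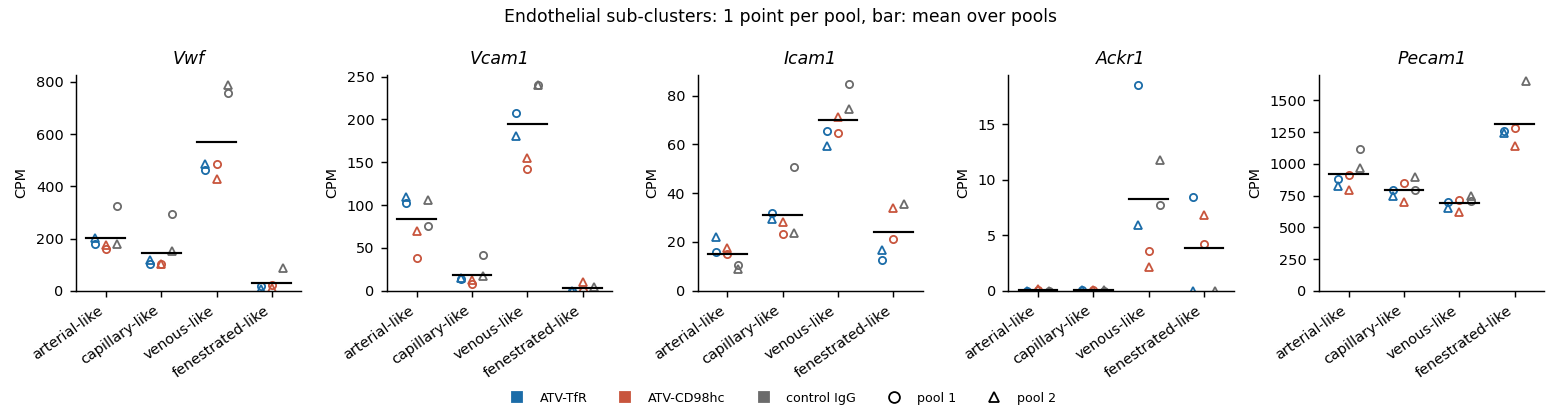
Levels of Vwf, Vcam1, Icam1, Ackr1 and Pecam1 in CPM (vertical axes) in arterial-like, capillary-like, venous-like and fenestrated-like cells, with 1 point per pool and a bar at the mean. The venous-like pools stand above the others for Vwf (lowest 429 CPM) and Vcam1 (lowest 142 CPM), and the fenestrated-like pools are highest for Pecam1 (mean 1317 CPM).

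The selectins were seen in single cells. Of the 18 endothelial-like cells with a Selp UMI, 16 had 1 UMI, 1 had 2 and 1 had 31, and this last was a venous-like cell of ATV-TfR high pool 1 with 12959 UMIs in total. Of the 14 with a Sele UMI, 10 had 1, 3 had 2 and 1 had 9. The cell with 9 belonged to an unnamed sub-cluster of 88 cells led by Apln, Fscn1 and Angpt2, genes known from sprouting tip cells, and lay in ATV-CD98hc high pool 1. That sub-cluster held 12 of the 25 endothelial Sele UMIs and 224 Icam1 UMIs. Its Icam1 level was 618 CPM in pool 1 of ATV-CD98hc and 240 CPM in pool 2 of control IgG, the only pools with at least 20 such cells, and both were above the highest venous-like pool (84.8). Its cells came from 14 libraries, 16 at most from 1 library.

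For 6 of the members, a rule named the 3 genes most alike in level, by Pearson's r of log2 levels over 59 units of endothelial sub-cluster and pool that share cells of the same libraries. For Vwf they included Myof (r = 0.913) and Prcp (0.795), and for Vcam1 they were Vwf itself (0.767), Ptgis (0.740) and Ptgs2os (0.678). Icam1 was nearest to Cyba (0.804), Vasp (0.745) and Crlf2 (0.703). Ackr1 was nearest to Lrg1 (0.797), Serpina3g (0.766) and Gpr182 (0.648). Icam2 was nearest to Pdia3 (0.899), Arl6ip5 (0.892) and Tagln2 (0.889), and Pecam1 to Col4a2 (0.854), Hspg2 (0.838) and Lrrc8c (0.824). Among the 8 genes, Vcam1 and Icam1 had r = 0.519, and Pecam1 with Vwf had r = -0.387.

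The bins asked how the 8 genes differ between endothelial-like cells that carried much of the antibody and those that carried none detected. The ends differed much in number: 81 and 124 endothelial-like cells in the ATV-TfR negative libraries and 58 and 80 in those of ATV-CD98hc, of 27 to 16605 over the 21 libraries tested. Vcam1 and Vwf fell from the negative to the high bin with ATV-TfR, and Vcam1 fell with ATV-CD98hc, while Icam1, Icam2 and Pecam1 did not pass the test in either. Ackr1 did not pass it with ATV-TfR either, at -2.35 ± 1.57 (log2 change ± SE), and the selectins had too few UMIs to be tested.

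Vcam1 in endothelial-like cells stood at 218 and 322 CPM in the ATV-TfR negative libraries (pools 1 and 2), 234 and 288 in the low, 55.4 and 55.4 in the medium and 25 and 20.6 in the high libraries. The negative and low libraries were high and overlapped, and the medium and high libraries lay below all of them. The mean fell from 270 ± 73.7 to 22.8 ± 3.15 CPM (SD, n = 2 libraries each), an 11.9-fold difference, and the log2 change was -3.34 ± 0.41 (SE; adjusted p = 8.2e-06, edgeR's quasi-likelihood test with Benjamini-Hochberg adjustment). With this contrast 2 of the 6 members tested were called, and 10.6% of 15449 genes were called in all. With a linear trend over the 4 bins, the change per bin was -1.22 ± 0.13 (adjusted p = 1.1e-06, edgeR, 11.9% of genes called).

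In the ATV-CD98hc libraries Vcam1 stood at 49.9 and 281 CPM in the negative, 56.7 and 76.4 in the low, 15.5 and 17.2 in the medium and 20.2 and 18.7 in the high bin. The negative libraries lay far apart, and both were above all medium and high libraries. The mean was 165 ± 163 CPM in the negative and 19.5 ± 1.08 in the high bin, and the log2 change was -2.77 ± 0.50 (adjusted p = 0.0013, edgeR), 1 of 6 members tested, with 5.21% of genes called. The call was lost with a term for the pool (-2.71 ± 0.71, adjusted p = 0.069, edgeR) and without pool 2 of ATV-CD98hc (-1.22, adjusted p = 0.64, edgeR). The trend was -1.03 ± 0.16 per bin (adjusted p = 2.0e-04, edgeR, 6.30% called), and it was lost without that pool (-0.55, adjusted p = 0.37, edgeR).

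Vwf stood at 237 and 376 CPM in the ATV-TfR negative libraries, 287 and 318 in the low, 143 and 160 in the medium and 113 and 116 in the high libraries. Here too the medium and high libraries lay below all negative and low ones. The log2 change from negative to high was -1.19 ± 0.26 (adjusted p = 0.0030, edgeR), a 2.68-fold difference of the means, and without pool 1 of ATV-TfR (-1.56, adjusted p = 0.058, edgeR) or pool 2 (-0.81, adjusted p = 0.44) the call was lost. The trend was -0.45 ± 0.08 per bin (adjusted p = 3.8e-04, edgeR), and it was lost without pool 2 of ATV-TfR (-0.34, adjusted p = 0.24). With ATV-CD98hc, Vwf stood at 167 and 292 CPM in the negative, 111 and 125 in the low, 112 and 94.1 in the medium and 155 and 124 in the high bin (log2 change -0.52 ± 0.29, adjusted p = 0.41, edgeR). The difference between the treatments in the change from negative to high was not called for any of 6 members (Vcam1 -0.57 ± 0.60, Vwf -0.67 ± 0.39), with 2 genes, 0.0129% of those tested, called by edgeR. At an unadjusted p below 0.05, 849 genes and 0 members passed, and DESeq2 called 0 members.

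Icam1 overlapped between the negative and the high bin with both ATV treatments. It stood at 22.9 and 61.0 CPM in the ATV-TfR negative and 33.1 and 31.3 in the high libraries, and at 17.8 and 103 CPM in the ATV-CD98hc negative and 27.8 and 30.1 in the high libraries. The spread between pools in the negative bin was wider than the difference between the means. The ATV-TfR medium libraries stood at 26.6 and 24.6 CPM, below the high ones. Icam2 stood at 400 and 376 CPM in the ATV-TfR negative and 284 and 262 in the high libraries (log2 change -0.30 ± 0.26, not called). Pecam1 stood at 1097 and 1106 CPM in the ATV-TfR negative and 774 and 743 in the high libraries (-0.33 ± 0.18, not called by edgeR). DESeq2 called Pecam1 lower in this contrast. The median change over all genes in that contrast was 0.15. Between the high bins of ATV-TfR and ATV-CD98hc, none of 6 members was called (Vcam1 0.25 ± 0.35), with 13 genes, 0.0841%, called by edgeR. That count was 1554 without pool 2 of ATV-CD98hc, 65 without its pool 1, 0 without either pool of ATV-TfR and 2638 with a term for the pool. At an unadjusted p below 0.05, 497 genes and 1 member passed, and DESeq2 called 0 members.

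**Figure D3:**
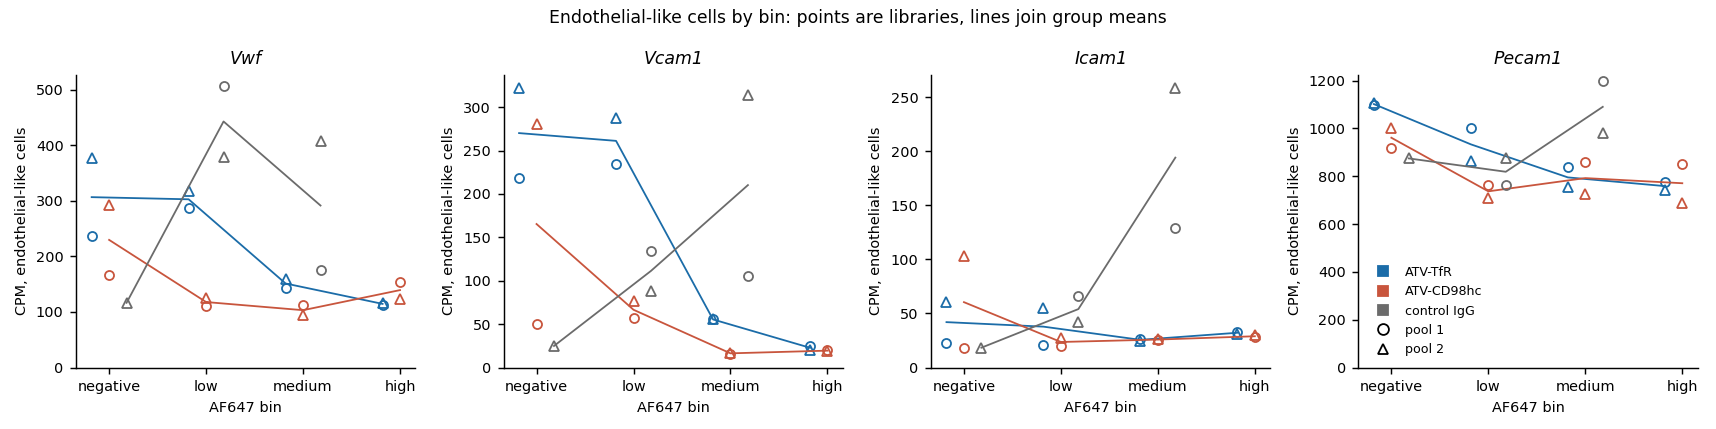
Levels of Vwf, Vcam1, Icam1 and Pecam1 in endothelial-like cells in CPM (vertical axes) over the fluorescence bins, with 1 point per library and lines through the group means of each treatment. Vcam1 lies at 218 and 322 CPM in the ATV-TfR negative libraries and at 25 and 20.6 in the high ones, and control IgG rises from 1 negative library at 24.9.

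The make-up of the endothelial-like cells moved with the bins. Arterial-like cells were 43.5% to 48.1% of the endothelial-like cells in the ATV-TfR negative libraries and 4.22% to 5.02% in the high ones, and 41.4% to 55.0% and 3.33% to 6.89% with ATV-CD98hc. Fenestrated-like cells were 32.1% to 37.9% of the ATV-TfR negative libraries and 0 of the 16605 and 15360 cells in the high ones, and 8.75% to 13.8% and 0.034% to 0.089% with ATV-CD98hc. Capillary-like cells went the other way, from 1.23% to 6.45% up to 49.0% to 51.3% with ATV-TfR, and from 18.8% to 19.0% up to 51.5% to 74.8% with ATV-CD98hc. Cells of unnamed sub-clusters were 8.87% to 13.6% of the ATV-TfR negative and 37.9% to 42.6% of the high libraries. With ATV-CD98hc they were 17.5% to 24.1% of the negative libraries, and 10.2% and 40.3% of the 2 high ones. Within the arterial-like cells alone, a restriction chosen after seeing the data, Vcam1 also fell with both treatments. It stood at 424 and 554 CPM in the ATV-TfR negative, 316 and 409 in the low, 99.3 and 95.1 in the medium and 45.5 and 56.8 in the high libraries, with no overlap between high and medium or between medium and low. In ATV-CD98hc it stood at 82.0 and 341, then 156 and 190, then 25.1 and 33.5, and then 18.3 and 23.9 CPM. The log2 changes from negative to high were -3.17 ± 0.29 (adjusted p = 2.6e-09, edgeR) and -3.03 ± 0.43 (adjusted p = 1.5e-05, edgeR). Fits limited to arterial-like, capillary-like or venous-like cells were not repeated with a pool left out or with a term for the pool.

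Vwf in arterial-like cells stood at 381 and 584 CPM in the ATV-TfR negative libraries, 315 and 330 in the low, 182 and 204 in the medium and 142 and 166 in the high libraries. Its log2 change was -1.55 ± 0.22 with ATV-TfR (adjusted p = 1.5e-06, edgeR) and -0.53 ± 0.26 with ATV-CD98hc (adjusted p = 0.37, edgeR). These negative libraries held 54 and 39 arterial-like cells with ATV-TfR and 44 and 24 with ATV-CD98hc. Icam1 in arterial-like cells stood at 26 and 71.5 CPM in the ATV-TfR negative and 16.2 and 14.6 in the high libraries, without overlap (log2 change -1.49 ± 0.56, adjusted p = 0.15, edgeR).

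The negative libraries had too few capillary-like or venous-like cells for the same test there. Over the bins with enough capillary-like cells, no fall of Vwf or Vcam1 was called. In ATV-CD98hc, capillary-like Vwf stood at 80.3 and 85.6 CPM in the low, 91.2 and 88.2 in the medium and 124 and 121 in the high libraries, and Vcam1 at 5.89 and 8.03, then 8.13 and 13.4, and then 9.03 and 13.2 CPM. Their trends were 0.33 per bin (adjusted p = 0.10, edgeR) and 0.37 (adjusted p = 0.61). With ATV-TfR, Vwf stood at 97.3 and 135 CPM in the medium and 102 and 115 in the high libraries, and Vcam1 at 13.7 and 28.7 against 13.4 and 14.1. The ATV-TfR low bin had 1 library with enough of these cells, 27, and 0 UMIs of Vcam1 in them, so the fitted trends with ATV-TfR give no direction.

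**Figure D4:**
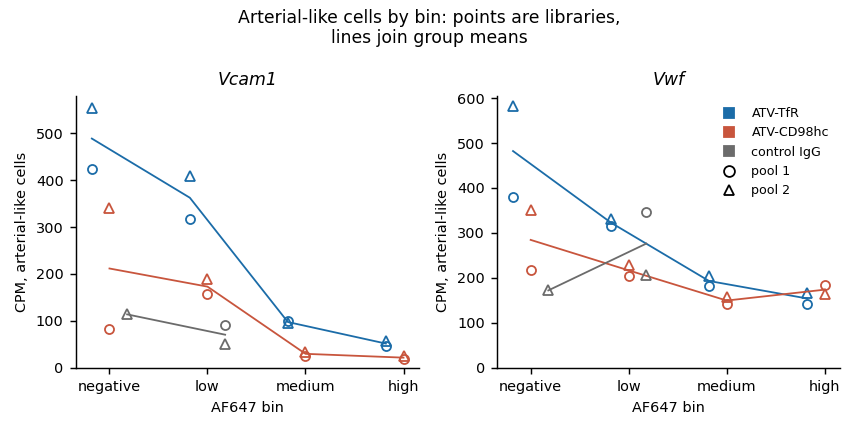
Vcam1 and Vwf in arterial-like cells in CPM (vertical axes) over the fluorescence bins, with 1 point per library and lines through the group means. Vcam1 runs from 424 and 554 CPM in the ATV-TfR negative to 45.5 and 56.8 CPM in the high libraries.

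RNA of other cell types moved with the bins as well. Summed levels of 8 smooth muscle markers in arterial-like cells ran from 107 to 138 CPM in the ATV-TfR negative and 41.6 to 47.7 in the high libraries, and 8 fibroblast markers from 17.3 to 53.6 and 4.44 to 5.49 CPM, with 4 to 5 and 4 to 6 of the 8 at 0. The 10 astrocyte markers summed to between 117 and 220 CPM in the negative libraries (3 to 4 at 0) and 91.9 and 127 in the high ones (0 to 1 at 0). The 9 pericyte markers went the other way, from 107 to 264 CPM to between 439 and 481 CPM. In ATV-CD98hc the fibroblast markers summed to between 11 and 17.6 CPM in the negative and 6.95 and 9.11 in the high libraries. The part of such RNA in the levels of Vcam1, which fibroblast-like and astrocyte-like cells also hold, was not tested.

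For venous-like cells, values of the medium and high bins are set side by side. Vwf stood at 847 and 1006 CPM in the ATV-TfR medium and 427 and 438 in the high libraries, Vcam1 at 354 and 394 against 194 and 165, and Icam1 at 105 and 118 against 61.9 and 52.2. In ATV-CD98hc the venous-like levels of Vwf overlapped, with 494 and 402 CPM in the medium and 491 and 450 in the high libraries. Trends were fitted over the bins that held enough venous-like cells, a restriction also chosen after seeing the data. With ATV-TfR only the medium and high bins entered, since each negative library held 4 such cells and each low library 11. The trend of Vwf with ATV-TfR, here the change between those bins, was -1.01 ± 0.19 per bin (adjusted p = 8.6e-04, edgeR). That of Vcam1 was -0.96 (adjusted p = 0.43, edgeR). With ATV-CD98hc these trends were 0.39 for Vwf (adjusted p = 0.084, edgeR) and 0.18 for Vcam1 (adjusted p = 0.87).

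Control IgG, an antibody not built to bind either receptor, was compared between its 1 negative and 2 low libraries, since its medium and high bins held few endothelial-like cells. Vwf, Vcam1, Icam1 and Ackr1 were higher in the low bin. Over the same bins, Vwf and Vcam1 overlapped with ATV-TfR, and with ATV-CD98hc Vcam1 overlapped while Vwf was lower in both low libraries than in the negative ones. Vwf stood at 117 CPM in the negative library and at 507 and 379 in the low ones, a 3.80-fold difference of the means and a log2 change of 1.98 ± 0.33 (adjusted p = 3.0e-04, edgeR). Vcam1 stood at 24.9 against 134 and 88.2 CPM (2.21 ± 0.50, adjusted p = 0.011, edgeR), and Icam1 at 18.4 against 65.8 and 42.4 CPM (1.59 ± 0.44, adjusted p = 0.043, edgeR). Ackr1, known from venules, had 0 UMIs among 9369333 in the negative library and 58 in the low ones, 3.65 CPM, which is at least 11.4-fold higher when the negative library is set at 3 UMIs (0.320 CPM; adjusted p = 0.020, edgeR). These are 4 of the 6 members tested, with 4.27% of genes called. Icam2 (205 against 249 and 180 CPM) and Pecam1 (874 against 762 and 875 CPM) overlapped.

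The spread of the single negative library is taken from the other groups. Vcam1 lost its call with a term for the pool (2.00, adjusted p = 0.098, edgeR), and Icam1 lost it under DESeq2 (adjusted p = 0.086), with a term for the pool (adjusted p = 0.16, edgeR) and with each of 5 pools left out in turn (adjusted p 0.060 to 0.20); pool 2 of control IgG holds the only negative library and could not be left out. With pools left out, the adjusted p of Ackr1 ran from 0.011 to 0.16 (edgeR). Venous-like cells were 28.7% to 43.1% of the endothelial-like cells in the control IgG low libraries and 6.65% in the negative one. Within venous-like cells Vwf stood at 313 CPM in the negative and at 758 and 880 in the low libraries, Vcam1 at 52.7 against 240 and 267, and Icam1 at 26.3 against 82.5 and 77.3. Each low library was thus above the negative one there too, but the log2 change of Vcam1, 2.31 ± 0.56, was not called in these cells (adjusted p = 0.20, edgeR). Within capillary-like cells Vwf was 2.64-fold and Vcam1 4.66-fold higher in the low bin by the means. Within arterial-like cells Vcam1 went the other way, from 114 CPM in the negative to 90.0 and 50.2 in the low libraries (-0.99, adjusted p = 0.98, edgeR). The control IgG negative library also held more astrocyte marker RNA in its endothelial-like cells, 352 CPM against 32.7 to 35.2 in the low ones.

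The control IgG medium libraries, with few endothelial-like cells, stood at 106 and 314 CPM for Vcam1, 176 and 407 for Vwf and 129 and 259 for Icam1. The linear trend over the control IgG bins was called for Icam1 (1.71 ± 0.28 per bin, adjusted p = 0.0068, edgeR) and Vcam1 (1.57 ± 0.30, adjusted p = 0.022, edgeR), with 0.375% of genes called. It covers the negative, low and medium bins, since the high libraries held 10 and 14 endothelial-like cells. Vcam1 stood at 0 and 18 CPM in those high libraries (0 and 1 UMIs), below the medium ones, and Icam1 at 126 and 54.0. Both calls were lost with a term for the pool (adjusted p = 0.12 and 0.23, edgeR) and without pool 2 of control IgG, which leaves no negative library (0.80 and -0.52 per bin). Leaving out either pool of ATV-TfR also ended the call of Vcam1 (adjusted p = 0.10 and 0.087), and leaving out either pool of ATV-CD98hc that of Icam1 (adjusted p = 0.055 and 0.095).

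The change from negative to low differed between the ATV treatments and control IgG. This comparison was added after seeing the data. For Vwf the difference was -1.96 ± 0.41 for ATV-TfR against control IgG (adjusted p = 0.0068, edgeR, 1 of the 6 members tested, with 2.29% of genes called) and -2.87 ± 0.44 for ATV-CD98hc (adjusted p = 2.5e-04, edgeR, 2.00% called). For Vcam1 it was -2.22 ± 0.63 (adjusted p = 0.081, edgeR) and -3.34 ± 0.69 (adjusted p = 0.011, edgeR). Without pool 1 of ATV-TfR (adjusted p = 0.14) or pool 2 (0.30) the Vwf call for ATV-TfR was lost by edgeR, and the Vcam1 call for ATV-CD98hc was lost with a term for the pool (-3.10, adjusted p = 0.16) and without pool 2 of ATV-CD98hc (-2.00, adjusted p = 0.51). In arterial-like cells alone the Vcam1 differences turned to 0.58 with ATV-TfR (adjusted p = 0.91, edgeR) and 1.00 with ATV-CD98hc (adjusted p = 0.77), and those of Vwf were -0.99 (adjusted p = 0.73) and -0.69 (adjusted p = 0.74). All of these rest on the single control IgG negative library.

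With the bins of each pool summed, no member was called between treatments by edgeR, and 0.00% of 16679 genes were. ATV-TfR against control IgG gave a log2 difference of -1.58 ± 0.32 for Vwf (adjusted p = 0.29) and -1.63 ± 0.35 for Vcam1 (adjusted p = 0.31). ATV-CD98hc against control IgG gave -1.66 for Vwf (adjusted p = 0.41), -2.23 for Vcam1 (adjusted p = 0.31) and -3.67 ± 0.63 for Ackr1 (adjusted p = 0.32). ATV-TfR against ATV-CD98hc gave 0.61 for Vcam1 and 0.08 for Vwf. At an unadjusted p below 0.05, 1177, 730 and 362 genes passed for ATV-TfR and ATV-CD98hc against control IgG and for ATV-TfR against ATV-CD98hc, with 3, 4 and 1 of the 7 members tested. DESeq2 called Vwf and Vcam1 lower in both comparisons with control IgG, Ackr1 in that of ATV-CD98hc, and 0 members between the ATV treatments. It also called more genes than edgeR in each of these comparisons, by the counts given below with the processing. Pool 1 of control IgG had no negative library, so its sum lacks that bin, while the sums of all other pools hold it. Without pool 2 of control IgG, the log2 differences of ATV-TfR and ATV-CD98hc from control IgG were -2.01 and -2.07 for Vwf. For Vcam1 they were -2.13 and -2.71. Without pool 1 of control IgG they were -0.96 and -1.04 for Vwf and -0.90 and -1.51 for Vcam1. The part of the missing bin in these differences and in the DESeq2 calls was not tested. The bins add cells in different proportions to these sums. A fit with the bins weighted equally took each library as a separate sample, without a term for the pool. Its p-values thus treat bins of the same mice as independent, unlike those of the pool sums. By that fit edgeR called 1178, 270 and 392 genes for ATV-TfR and ATV-CD98hc against control IgG and for ATV-TfR against ATV-CD98hc. Against control IgG that fit covered the negative, low and medium bins only, since the control IgG high libraries held 10 and 14 endothelial-like cells. The ATV-TfR high libraries, with 15360 and 16605 such cells, were thus left out. Over those bins ATV-TfR against control IgG gave 0.82 ± 0.26 for Vcam1 (adjusted p = 0.062, edgeR) and 2.31 for Ackr1 (adjusted p = 0.41). It was -0.11 for Vwf (adjusted p = 0.84). ATV-CD98hc against control IgG gave -0.87 for Vwf (adjusted p = 0.0045, edgeR) and -0.67 for Vcam1 (adjusted p = 0.34). ATV-TfR against ATV-CD98hc gave 0.50 for Vwf (adjusted p = 0.035, edgeR) and 1.18 for Vcam1 (adjusted p = 0.0017).

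Female and male cells could be told apart by sex-specific genes within each pool, and no member was called between them by edgeR (91 genes, 0.657% of 13845). At an unadjusted p below 0.05, 1087 genes and 0 of 5 members passed, and DESeq2 called 0 members. Vwf, for example, stood at 149 and 118 CPM in female and 115 and 108 CPM in male cells of the ATV-CD98hc pools, and at 118 and 128 against 126 and 120 CPM with ATV-TfR.

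The other genes of leukocyte traffic, in 5 lists, were set beside the members. From negative to high with ATV-TfR, 5 of the 19 tested genes of other junction and transmigration molecules were called, where 10.6% of all genes were: Jam2 rose by 0.67 on the log2 scale, and Jam3 (-4.32), Mcam (-3.98), Cd9 (-2.54) and Podxl (-0.97) fell. Their median was -0.26, against 0.15 for all genes. With ATV-CD98hc, Cd9 (-3.09), Mcam (-2.96) and Jam3 (-2.95) fell, 3 of 19 where 5.21% of all genes were called. With control IgG, from negative to low, none of the 19 was called, where 4.27% of all genes were. In the control IgG trend over the negative, low and medium bins, Jam3 (1.33 per bin, adjusted p = 0.036, edgeR), Angpt2 of the Weibel-Palade list (1.76, adjusted p = 0.0012) and Tlr4 of the receptor list (1.67, adjusted p = 0.022) were called higher. Jam3 had 14 UMIs and Tlr4 8 in the medium bin. Jam3 stood at 138 CPM in the ATV-TfR negative and 5.89 in the high bin, and Mcam, a protein of mural cells as well as endothelium, at 88.0 and 4.96 CPM, with the libraries of a bin pooled.

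Of 12 genes of Weibel-Palade bodies and their release, 4 were called with ATV-TfR, 2 with ATV-CD98hc and 0 from negative to low with control IgG, beside the same 10.6%, 5.21% and 4.27% of all genes. Plat, the tissue plasminogen activator, rose with ATV-TfR (1.03), while Procr, the endothelial protein C receptor (-1.35), and Edn1, endothelin 1 (-0.74), fell. Edn1 (-0.87) also fell with ATV-CD98hc. Tspan8 was called lower in both, but had 2 UMIs in each end of the ATV-TfR bins and 7 against 0 with ATV-CD98hc. Of 10 leukocyte counter-receptors, 3, 1 and 2 were called in these comparisons. Itgam, Selplg and Itgb3 (-3.68) fell with ATV-TfR, the first at 8 UMIs (9.78 CPM) in the negative and 9 (0.0709 CPM) in the high bin, the second at 9 (11 CPM) and 11 (0.0867 CPM). Itgb3 also fell with ATV-CD98hc (-3.18, adjusted p = 0.046, edgeR), and Itgam (-3.33) and Selplg (-2.70) fell from negative to low with control IgG. Itgam and Selplg are known from microglia and other leukocytes, and the 10 microglia markers summed to between 149 and 248 CPM in the negative and 71.7 and 92.8 in the high libraries. Whether they came from such cells was not tested.

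Of 17 NF-kB target and cytokine response genes, 2 were called with ATV-TfR, 1 with ATV-CD98hc and 3 with control IgG, beside 10.6%, 5.21% and 4.27% of all genes. Nfkbia, an inhibitor of NF-kB, rose (0.85) with ATV-TfR. Tnfaip2 fell with both ATV treatments, from 72.1 to 0.0946 CPM (59 and 12 UMIs) with ATV-TfR and from 28.6 to 0.0902 CPM (13 and 8 UMIs) with ATV-CD98hc, the libraries of a bin pooled. Lcn2 (3.62), Icosl (1.77) and Ptgs2 (1.70) rose from the negative to the low bin of control IgG. Of 12 cytokine and pattern receptors, 5, 1 and 2 were called in these comparisons. Ifnar1 rose (1.12) and Tlr4 (-2.71), Tlr2 (-2.53), Tnfrsf1b (-1.36) and Tnfrsf1a (-1.31) fell with ATV-TfR, with 14 UMIs of Tlr4 and 9 of Tlr2 in the negative bin. Tnfrsf1a (-1.16) fell with ATV-CD98hc, and Il1r1 (2.30) and Il6st (0.79) rose with control IgG from negative to low. Il1r1 is among the leading genes of the venous-like sub-cluster.

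Outside endothelium, Vcam1 summed over a class was higher in the high than in the negative bin in fibroblast-like cells of ATV-CD98hc and astrocyte-like cells of ATV-TfR. In fibroblast-like cells of ATV-CD98hc it stood at 203 and 215 CPM in the negative, 304 and 253 in the low, 542 and 428 in the medium and 587 and 538 in the high libraries, with no overlap between the negative and the medium or high libraries. The log2 change was 1.44 ± 0.25 (adjusted p = 6.2e-04, edgeR, with 5.80% of genes called), and it lost its call without pool 1 of ATV-CD98hc (adjusted p = 0.073). These cells came from 2 clusters. Cluster 25 had 690 to 1043 CPM of Vcam1 (median 822, 15 libraries) and cluster 22 had 0 to 293 (median 144, 19 libraries). Within cluster 22 the level went the other way: 179 to 203 CPM in the ATV-CD98hc negative, 144 to 158 in the medium and 41.3 to 77.7 in the high libraries, and 271 to 293 CPM in the ATV-TfR negative and 21.3 to 48.9 in the medium ones. Within cluster 25 of ATV-CD98hc it stood at 690 CPM in 1 low library, 775 to 806 in the medium and 712 to 848 in the high libraries. Cluster 25 was 2.78% to 3.85% of the fibroblast-like cells in the ATV-CD98hc negative and 64.0% to 75.8% in the high libraries. Control IgG stood at 260 CPM in the negative library, 893 and 912 in the low 911 and 962 in the medium and 621 and 751 in the high libraries, so that its high libraries lay below the low and medium ones. ATV-TfR stood at 320 and 338 in the negative, 629 and 706 in the low and 680 and 595 in the medium libraries, the last 2 bins overlapping.

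**Figure D5:**
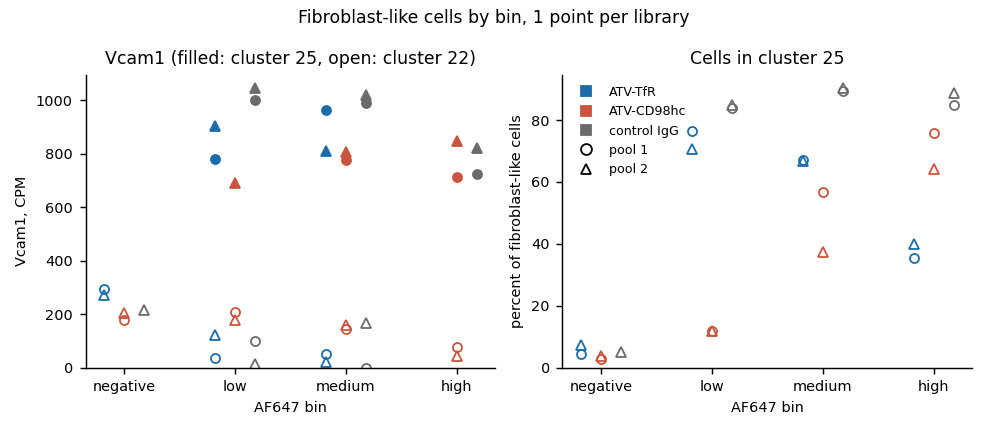
Left, Vcam1 in CPM (vertical axis) in cluster 25 (filled points) and cluster 22 (open points) of the fibroblast-like cells over the bins, 1 point per library. Right, the percent of fibroblast-like cells in cluster 25. Cluster 25 lies at 690 to 1043 CPM and cluster 22 at 0 to 293, and the share of cluster 25 with ATV-CD98hc runs from 2.78% to 3.85% in the negative to 64.0% to 75.8% in the high bin.

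In astrocyte-like cells of ATV-TfR, Vcam1 stood at 138 and 140 CPM in the negative, 153 and 149 in the low, 171 and 175 in the medium and 186 and 187 in the high libraries, each bin above the one before. Astrocyte-like cells came from several clusters, with mean Vcam1 from 50.7 CPM (cluster 13) to 178 CPM (cluster 3). The part of the cluster make-up in this rise was not tested. The log2 change from negative to high was 0.54 ± 0.09 (adjusted p = 3.7e-04, edgeR, with 17.5% of genes called), and it was not called without pool 1 (adjusted p = 0.15) or pool 2 (adjusted p = 0.067) of ATV-TfR. With ATV-CD98hc it stood at 139 and 165 CPM in the negative and 149 and 152 in the high libraries (-0.06, not called, 7.94% called). Vcam1 in the choroid plexus epithelial-like class with ATV-CD98hc fell from 157 and 138 CPM in the negative to 115 and 130 in the high libraries (-0.53 ± 0.20, adjusted p = 0.047, edgeR, 30.3% called). This was not called with DESeq2's scaling (adjusted p = 0.072, edgeR) and was lost without pool 1 of ATV-CD98hc (-0.28, adjusted p = 0.59), either pool of ATV-TfR (adjusted p = 0.16 and 0.060) or pool 1 of control IgG (adjusted p = 0.16).

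Over the 9 tested pairs of class and treatment outside endothelium, 25 of 45 tests of members between the negative and the high bin were called. Besides the shares already given, 9.45% of genes were called in border macrophage-like cells of ATV-TfR, 22.9% for ATV-TfR in the choroid plexus epithelial-like class and 6.32% in microglia-like cells of ATV-CD98hc. Of the 25 calls, 20 were of Pecam1 (8), Icam2 (7) or Vwf (5), the members that endothelial-like cells mainly held, each higher in the high bin. Endothelial marker RNA was also higher in the high libraries, without overlap, in each of the 9 pairs except astrocyte-like cells of ATV-CD98hc. In pericyte-like cells of ATV-TfR the 12 markers summed to between 15016 and 15271 CPM in the high and 804 and 2260 in the negative libraries. In astrocyte-like cells of ATV-TfR they summed to between 894 and 1241 CPM in the high and 552 and 554 in the negative libraries. With ATV-CD98hc the astrocyte-like sums were 369 to 527 CPM in the high and 509 to 622 in the negative libraries, and these overlapped. The part of this RNA in the calls was not tested. In pericyte-like cells, Pecam1 changed by 4.10 ± 0.72 with ATV-TfR (adjusted p = 0.0018, edgeR, 22.7% called) and by 4.86 ± 0.83 with ATV-CD98hc (adjusted p = 0.0018, edgeR, 20.7% called). The latter lost its call without either pool of ATV-CD98hc (adjusted p = 0.073 and 0.082, edgeR). In microglia-like cells of ATV-CD98hc, Icam1, which they hold most, stood at 98.3 and 109 CPM in the negative and 96.4 and 118 in the high libraries (0.05 ± 0.27, adjusted p = 0.96, edgeR).

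Between treatments, over the pools, 19 of 92 tests of members outside endothelium were called, 9 higher and 10 lower, with 0 to 2085 genes called per comparison. The share of all tested genes called ran from 0 to 12.6% per comparison, highest in border macrophage-like cells of ATV-TfR against control IgG. The sums weight the bins by their cells. Icam1 in astrocyte-like cells, at a mean of 0.462 CPM, had a log2 difference of -1.28 for ATV-TfR against ATV-CD98hc. Vcam1 in fibroblast-like cells was lower with ATV-CD98hc than with control IgG (-1.02 ± 0.22, adjusted p = 0.0088, edgeR, 9.86% of genes called). Cluster 25, the one with more Vcam1, was 84% to 90.3% of the fibroblast-like cells in the 6 control IgG libraries above the negative gate and 5.13% in the negative one, against 2.78% to 75.8% over the libraries of ATV-CD98hc, and its part in this difference was not tested. Vcam1 in astrocyte-like cells was 0.17 ± 0.04 higher on the log2 scale with ATV-TfR than with ATV-CD98hc (adjusted p = 0.036, edgeR, 2085 of 18934 genes called), and leaving out any of these 4 pools ended the call (adjusted p 0.083 to 0.20). Icam1 in border macrophage-like cells was lower with ATV-TfR than with control IgG (-0.91 ± 0.27, adjusted p = 0.041, edgeR, 12.6% called). That call was lost without pool 2 of control IgG (-0.58, adjusted p = 0.29, edgeR) and without pool 1 (adjusted p = 0.24) or pool 2 (0.18) of ATV-TfR. It stood between 24.2 and 56.7 CPM in the ATV-TfR libraries, and at 66.9 and 106 CPM in the high bin of control IgG, the bin with the largest number of that treatment's cells of this class.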

How the data were processed

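The authors deposited 1 matrix of whole-number UMI counts per gene and cell for 23 libraries. Per the submitters' processing notes, Cell Ranger 7.1.0 and Seurat 4 and 5 were used, with mm10 or GRCm38. Barcodes needed 500 genes, 800 UMIs and a mitochondrial share of 10% or less, and doublets called per library by Scrublet (scanpy 1.11.5; the 94th percentile of the score in 8 libraries where the automatic limit marked under 0.5% or over 25%) were removed. Clustering (leidenalg 0.10.2) left out the 8 members, and clusters and sub-clusters were named from markers. UMIs were summed per class and library with at least 20 cells and tested with edgeR 4.0.16's quasi-likelihood test (TMM) over all expressed genes, with Benjamini-Hochberg adjustment and a threshold of 0.05. Pools were left out in turn, and DESeq2 1.42.0, other filters, other cell definitions and a term for the pool were tried. On simulated counts for the ATV-TfR high minus negative contrast (15121 genes), 41 of 100 genes changed 2-fold and 92 of 100 changed 4-fold were recovered. The changed genes had a mean of at least 10 CPM and all genes had a common dispersion, so these rates do not cover members at lower levels, such as Ackr1. The members, lists and the rule for named genes (every member, and up to 4 called genes per list and comparison) were chosen with earlier results of these data known. Jam2 and Ifnar1 fall outside that rule and were named after their values were seen. One gene that the likeness rule named for Vwf is not reported here. Those named for Selp and Sele are left out because these genes had few UMIs. Bins of a pool share their animals, per the labels, so pool numbers pair samples. Deviations of same-numbered libraries correlated at 0.0195 to 0.338 (ATV-TfR), 0.0755 to 0.933 (ATV-CD98hc) and 0.136 (control IgG). P-values measure the spread between 2 pools of mice per treatment. The fits by library had no term for the pool unless stated, so bins of a pool entered them as separate samples. Intervals and limits from counts cover counting error only. Gene positions are GENCODE M21 (GRCm38).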

Additional observations from a re-analysis of the deposited data

Results flagged for a closer look

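The change from the negative to the low bin in endothelial-like cells differed between an ATV treatment and control IgG for Vwf and Vcam1, by a test of the difference itself that was added after seeing the data (edgeR's quasi-likelihood test with Benjamini-Hochberg adjustment). For Vwf it was -1.96 on the log2 scale with ATV-TfR against control IgG (adjusted p = 0.0068) and -2.87 with ATV-CD98hc (adjusted p = 2.5e-04). For Vcam1 it was -3.34 with ATV-CD98hc (adjusted p = 0.011). Vwf went from 237 and 376 CPM to 287 and 318 with ATV-TfR and from 167 and 292 to 111 and 125 with ATV-CD98hc, against 117 to 507 and 379 with control IgG. These 3 differences share the 1 control IgG negative library. The Vcam1 call was lost with a term for the pool (adjusted p = 0.16, edgeR) and without pool 2 of ATV-CD98hc (adjusted p = 0.51), and the Vwf call for ATV-TfR was lost without either pool of ATV-TfR (adjusted p = 0.14 and 0.30). In arterial-like cells alone no difference was called for these members, and that of Vcam1 turned to 0.58 with ATV-TfR and 1.00 with ATV-CD98hc. Venous-like cells were 6.65% of the endothelial-like cells in the control IgG negative library and 28.7% to 43.1% in the low ones; their part in the differences was not tested.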

How the results depend on the processing

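The negative bins set the limits: they held 58 to 124 endothelial-like cells with the ATV treatments, and control IgG had 1 negative library, so its spread was taken from the other groups, as was that of any group left with 1 library when a pool was left out. High minus negative could not be fitted in capillary-like or venous-like cells alone, because the negative libraries held under 20 of them. Cells limited to the arterial-like or venous-like kind, and the differences of low minus negative, were chosen after seeing the data. Where no cause is named below, the cause was not tested. Of the log2 changes and levels of single members under settings that left out no pool, 461 kept their direction and their side of the threshold, 19 lost their call, 21 gained one, 16 levels moved and 25 changed sign.

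DESeq2 called 1476 genes for ATV-CD98hc high minus negative (805 as reported), 28 for the difference of that change between the ATV treatments (2), 32 for the high bins (13), 1779 for the ATV-CD98hc trend (974), 224 for the control IgG trend (58), and 184, 82 and 7 between pools of ATV-TfR and control IgG, ATV-CD98hc and control IgG, and the ATV treatments (0 each). With no filter on low counts the counts were 52 for the difference, 124 for the high bins, 170 for the control IgG trend, 27 and 2 for the pools of ATV-TfR and of ATV-CD98hc against control IgG and 313 for sex (91), and Icam1 high minus negative with ATV-TfR turned to 0.13. The stricter filter, which tests fewer genes, gave 914 (1634) and 512 for high minus negative with ATV-TfR and ATV-CD98hc, 195 (659) for control IgG low minus negative, 152 (354) and 104 (309) for the differences of low minus negative from control IgG with ATV-TfR and ATV-CD98hc, and 1090 (1833) and 619 for the ATV trends.

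With the pool as a replicate block, 1230 genes were called for ATV-CD98hc high minus negative, 1006 for control IgG low minus negative, 72 for the difference between the ATV treatments, 2638 for the high bins, 638 and 524 for the differences from control IgG, 177 for the control IgG trend and 2 for the pools of ATV-TfR against control IgG, and Icam2 in control IgG low minus negative turned to -0.12. Sex without the replicate block gave 9 genes. With the bins weighted equally, in a fit by library without a term for the pool, 1178, 270 and 392 genes were called between ATV-TfR and control IgG, ATV-CD98hc and control IgG, and the ATV treatments. The comparisons with control IgG then covered the negative, low and medium bins only. Over those bins ATV-TfR against control IgG was 0.82 for Vcam1 and 2.31 for Ackr1.

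In capillary-like cells alone, 266 genes were called for control IgG low minus negative and for its trend, 0 for the high bins and 0 for the ATV-TfR trend, and the trends turned to 0.52 (Vwf) and 5.37 (Vcam1) with ATV-TfR and 0.33 and 0.37 with ATV-CD98hc, none called. The ATV-TfR trends there rest on 1 low library of 27 cells with 0 Vcam1 UMIs and give no direction. In arterial-like cells alone, 605, 410 and 0 genes were called for high minus negative with ATV-TfR and ATV-CD98hc and for control IgG low minus negative, 0 for the difference, 4 for the high bins, 12 and 9 for the differences from control IgG, 798, 574 and 0 for the trends and 7, 44 and 39 between pools. Control IgG low minus negative, and its trend, then turned to -1.68 for Icam1 and -0.99 for Vcam1, low minus negative also to -0.35 for Icam2 and 0.051 for Pecam1. The differences from control IgG turned to 1.40 (Icam1) and 0.58 (Vcam1) with ATV-TfR and 1.04 and 1.00 with ATV-CD98hc, and the pools of ATV-TfR against control IgG to 1.13 for Icam1 and 0.12 for Vcam1, and of ATV-CD98hc to 0.89 for Icam1. In venous-like cells alone, 60 genes were called for control IgG low minus negative, 4 for the high bins, 153 and 175 for the ATV-TfR and ATV-CD98hc trends and 13 for the pools of ATV-TfR against control IgG. There Pecam1 in control IgG turned to 0.086, the ATV-CD98hc trends to 0.39 for Vwf and 0.18 for Vcam1, and Ackr1 between the pools of ATV-TfR and control IgG to 0.36.

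With each pool left out in turn, counts ran from 579 to 2036 for ATV-TfR and 437 to 802 for ATV-CD98hc high minus negative, 448 to 1092 for control IgG low minus negative, 0 to 38 for the difference, 0 to 1554 for the high bins, 101 to 586 and 223 to 317 for the differences from control IgG, 668 to 2269, 564 to 989 and 14 to 146 for the trends, 0 to 60, 0 to 53 and 0 to 4 between pools and 66 to 104 for sex. Member calls in other classes ran from 13 to 26 between bins (25) and 12 to 27 between treatments (19). The log2 changes that changed sign ran from -0.83 to 0.79 (Icam1, ATV-TfR high minus negative), -1.58 to 0.73 (Icam1, ATV-CD98hc), -1.06 to 0.074 (Icam1, pools of ATV-TfR against control IgG), -0.17 to 0.14 and -0.094 to 0.020 (Icam2 and Pecam1, control IgG low minus negative), -2.13 to 0.34 (Vcam1, the difference between the ATV treatments), -0.52 to 1.80 and -1.70 to 0.87 (Vcam1 and Vwf, control IgG trend) and -0.18 to 0.079 (Vcam1, astrocyte-like cells of ATV-CD98hc).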

Other observations

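Ackr1 was also found outside the named classes. Of its 121 UMIs in unnamed clusters, 60 lay in cluster 17, led by neuron genes (13.9 CPM), 30 in cluster 19 and 26 in cluster 6. Of 11 Selp UMIs in unnamed clusters, 10 lay in cluster 24, led by the neutrophil genes S100a9, S100a8 and Camp. The control IgG high libraries held 10 and 14 endothelial-like cells and were not tested: Vwf stood at 346 and 270 CPM there, Vcam1 at 0 and 18 and Icam1 at 126 and 54.0.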
